A study of Mus musculus with 9 samples.

Results

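The SLC25 genes encode the mitochondrial carriers, a family of small membrane proteins that exchange metabolites, nucleotides, cofactors and ions between the cytosol and the mitochondrial matrix. The members described here are the rows of the rat liver count table whose symbol is Slc25a followed by a number. There were 47 such rows among 37203. Of these, 40 held enough counts to be tested, 5 held counts but did not pass the filter on low counts, and 2 (Slc25a31 and Slc25a41) had 0 counts in all libraries.

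Most carriers sit in the inner mitochondrial membrane and work as exchangers, moving one substrate in for another out. In hepatocytes they link cytosolic and mitochondrial steps of gluconeogenesis, the urea cycle, fatty acid oxidation, lipid synthesis, and heme and iron-sulfur cluster synthesis. Their names follow substrates: ADP and ATP (Slc25a4, Slc25a5), phosphate (Slc25a3), citrate (Slc25a1), aspartate and glutamate (Slc25a12, Slc25a13), ornithine (Slc25a15) or acylcarnitines (Slc25a20).

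Liver RNA of Wistar rats, described in the protocol as male, was sequenced on the Ion Proton platform in 3 groups of 3 libraries. Normal rats had received olive oil in place of carbon tetrachloride (CCl4). Fibrosis rats had received CCl4, a liver toxin that is activated inside hepatocytes, as a 50% mixture in olive oil at 2 mL/kg, 3 times a week for 8 weeks. Schisandrin B rats had received the same 8 weeks of CCl4 and, over the last 4 weeks, also daily schisandrin B, a lignan of Schisandra fruit. The study gave 25 or 50 mg/kg schisandrin B to separate groups of 8 rats, and the labels do not state which of the doses the 3 libraries carry and whether the libraries of a group came from separate animals, so p-values measure only the spread between these libraries, which may be technical.

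The 9 libraries held between 10320299 and 16255167 counts each. Levels are CPM, counts relative to library size, scaled by TMM factors, which correct for the make-up of a library, and 3 counts correspond to 0.176 to 0.287 CPM. A gene is called when its edgeR quasi-likelihood p, adjusted by Benjamini-Hochberg over all 14581 genes tested, is under 0.05. "Rose" and "fell" are kept for called genes, and changes are log2 fold changes with their SE. The Y-linked transcripts Kdm5d and Eif2s3y had 0 counts in all 3 normal libraries and were present in all 6 CCl4 libraries. Of 4 tested entries listed as Y-linked, 3 rose in fibrosis against normal (Kdm5d, Eif2s3y and Ddx3). The other, Ddx3y, was not called. It had 12, 12 and 32 counts in normal, 12, 16 and 26 in fibrosis and 16, 7 and 6 in schisandrin B libraries. In any comparison with normal libraries the effect of treatment and a difference of sex therefore cannot be told apart. The comparison of schisandrin B with fibrosis does not carry this difference. Fibrosis replicate 1 stood apart within its group, and the carrier fits, the named partner genes and the list counts were also computed without it.

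Within the carrier family, liver with fibrosis held fewer transcripts of most called members, and liver with schisandrin B held more of them than fibrosis. Against normal libraries, 4 of the 40 tested carriers rose and 16 fell in fibrosis. All genes tested gave 25.4% called higher and 22.9% called lower. Over both directions 50.0% of the carriers were called, which is near the 48.3% of all genes. The groups did not overlap in 25 carriers, 7 higher and 18 lower, beside 55.8% of all genes, 29% higher and 26.8% lower. The median carrier stood at -0.47 and the median gene at 0.03 on the log2 scale. In schisandrin B against fibrosis, 17 of 40 carriers rose and 3 fell, beside 22.5% called higher and 24.8% called lower among all genes. The share called in either direction was again 50.0%, near the 47.3% of all genes. The groups did not overlap in 24 carriers, 19 higher and 5 lower, beside 56.8% of all genes, 27.8% higher and 29% lower. The median carrier stood at 0.56 and the median gene at -0.03. Both comparisons use the same fibrosis libraries, so a fall in one and a rise in the other are not independent. Against normal libraries, schisandrin B had 2 carriers higher and 2 lower, where 5.25% of all genes were called in each direction and 10.5% in either. These shares of all genes are also the background for the counts of marker and partner lists given below.

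The split by direction depended on the scaling. With library totals in place of TMM factors, 10 carriers rose and 10 fell in fibrosis, with a median of -0.04 for carriers and 0.46 for all genes. Of the calls there, 50% were higher among carriers and 74.7% among all genes. In schisandrin B against fibrosis 12 rose and 7 fell, with medians of 0.26 and -0.30. Of the calls there, 63.2% were higher among carriers and 32.6% among all genes. The distance of the median carrier from the median gene was -0.50 under both scalings in the first comparison, and 0.59 (TMM) or 0.56 (library totals) in the second. No called carrier changed sign in any of the alternatives tried. Without fibrosis replicate 1 the counts were 6 higher and 18 lower in fibrosis against normal, and 17 higher and 3 lower in schisandrin B against fibrosis. Without that library 47.8% and 46.3% of all genes were called, and 52.5% and 47.2% of these calls were higher.

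**Figure D1:**
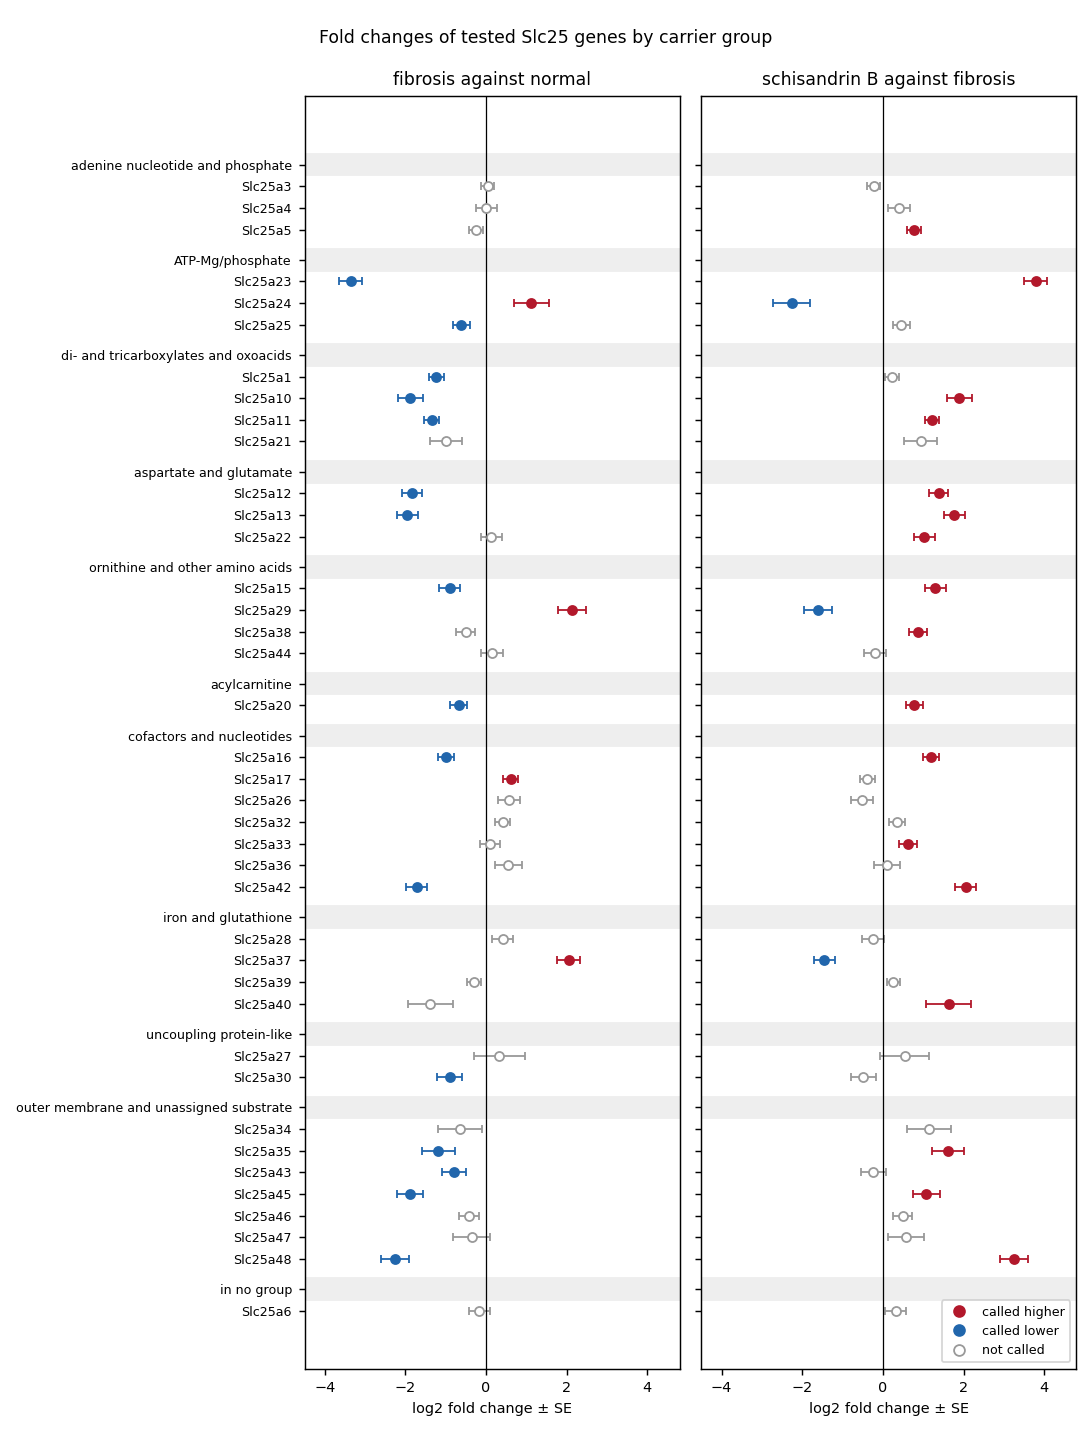
Log2 fold change with its SE (x axis) of tested Slc25 genes, grouped by substrate (grey bands), for fibrosis against normal (left) and schisandrin B against fibrosis (right). Red and blue points are called higher and lower, open points are not called. The left panel holds 16 blue and 4 red points, the right one 17 red and 3 blue points. Both panels use the same fibrosis libraries.

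The 47 rows together made up 0.282% to 0.324% of the counts of normal libraries, 0.195% to 0.298% of fibrosis libraries and 0.354% to 0.376% of schisandrin B libraries. On the TMM scale their summed level was 3234, 3482 and 3868 CPM in normal libraries, 1835, 2606 and 2081 CPM in fibrosis libraries and 3709, 3712 and 3897 CPM in schisandrin B libraries. The fibrosis libraries lay below all others on this scale, while the normal and schisandrin B libraries overlapped. The fibrosis mean was 61.6% of the normal mean, and the schisandrin B mean was 174% of the fibrosis mean. The two-sided exact permutation test gave p = 0.1 for each of these differences, the smallest value that 3 libraries against 3 allow. Schisandrin B differed from normal by 0.10 on the log2 scale (exact permutation p = 0.300). With library totals the fibrosis and normal libraries overlapped, and the fibrosis mean was 83.4% of the normal one. The schisandrin B libraries then lay above all normal ones, with a mean of 120% of the normal mean (exact permutation p = 0.1). On the TMM scale they also lay above the normal libraries when normal replicate 3 was left out.

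**Figure D2:**
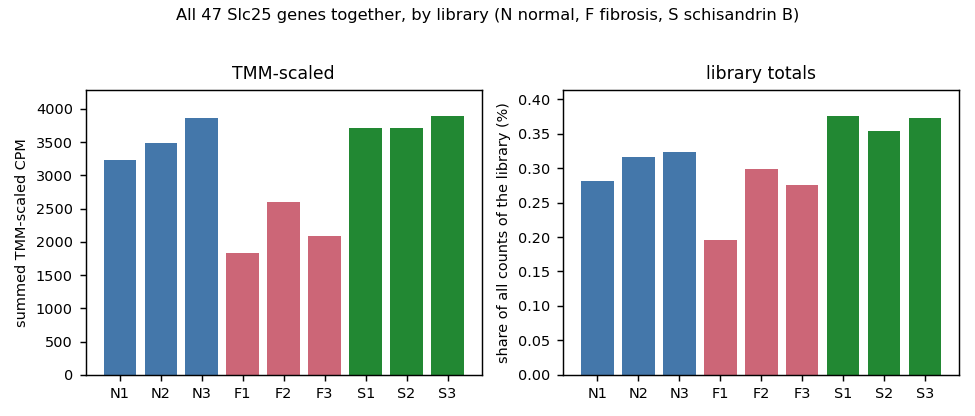
Summed level of all 47 Slc25 genes in each library, as TMM-scaled CPM (left) and as percent of all counts of the library (right). Bars are single libraries (N normal, F fibrosis, S schisandrin B, with replicate number). The 3 fibrosis libraries are the lowest on the left, from 1835 to 2606 CPM, and on the right fibrosis replicate 2 at 0.298% lies among the normal libraries.

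Markers of several liver cell types moved in the same comparisons. The summed level of 10 hepatocyte markers, most of it albumin, was 246691 to 282622 CPM in normal, 85430 to 131083 in fibrosis and 211238 to 234096 in schisandrin B libraries. Of these 10 markers 6 fell and 0 rose in fibrosis, and 5 rose and 0 fell with schisandrin B against fibrosis. Without fibrosis replicate 1 these counts were 5 fallen and 1 risen, and 5 risen and 2 fallen. Of the tested markers of other cells in fibrosis against normal, 3 of 5 cholangiocyte, 4 of 8 stellate cell and 2 of 3 neutrophil markers rose, and 4 of 6 endothelial, 4 of 4 T and NK cell, 1 of 8 stellate cell, 2 of 2 B cell and 1 of 7 Kupffer cell markers fell. In schisandrin B against fibrosis, 2 cholangiocyte, 3 stellate cell and 3 neutrophil markers fell, and 3 endothelial, 1 T and NK cell, 1 B cell and 3 stellate cell markers rose. The stellate cell markers that fell, Acta2, Des and Cygb, had risen in fibrosis. Those that rose were Lrat, which had fallen in fibrosis, and the collagens Col1a1 (1.55 ± 0.44, edgeR adjusted p 0.0150) and Col3a1 (0.72 ± 0.27, 0.0462). In fibrosis against normal, Col1a1 was 0.38 ± 0.44 higher (edgeR adjusted p 0.506) and Col3a1 0.13 ± 0.27 higher (0.718), without a call. With library totals 0 T and NK cell markers were called in either comparison, and 1 endothelial marker rose and 1 fell in fibrosis. The fall was called for 0 T and NK cell markers without normal replicate 1 and for 1 without fibrosis replicate 2 or 3, and for 2 endothelial markers without fibrosis replicate 2 or normal replicate 3. Without fibrosis replicate 1, 4 Kupffer cell markers fell in fibrosis. In bulk tissue, fewer cells of a type and less RNA per cell cannot be told apart, and the part of these markers in the carrier results was not tested. Of 12 tested markers of mitochondrial content, 3 rose and 4 fell in fibrosis, and 4 rose and 4 fell with schisandrin B against fibrosis. With library totals 5 rose and 2 fell, and 1 rose and 7 fell. Sdha, a respiratory chain subunit, fell by 1.25 ± 0.27 in fibrosis (edgeR adjusted p 0.00242), while the outer membrane channel Vdac2 rose by 0.58 ± 0.16 (0.0109) and the matrix chaperone Hspd1 rose by 2.99 ± 0.55 (0.00155). In schisandrin B against fibrosis, Sdha rose by 1.51 ± 0.27 (edgeR adjusted p 0.000813), Vdac2 fell by 0.74 ± 0.16 (0.00289) and Hspd1 fell by 3.35 ± 0.56 (0.000923). Hspd1 was at 1839 CPM in fibrosis replicate 1 and at 431 and 382 in the others, and without that library it rose by 1.87 and fell by 2.23.

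Of the 3 tested carriers that serve ATP synthesis, 0 were called in fibrosis and 1 rose with schisandrin B against fibrosis. Slc25a3, which brings in phosphate, stood at 145, 131 and 145 CPM in normal libraries, 149, 150.2 and 134 in fibrosis libraries and 114, 122 and 132 in schisandrin B libraries. Its difference in fibrosis against normal was 0.04 ± 0.16 (edgeR adjusted p 0.849), and with library totals it was called higher (0.0183, over a range of 0.0183 to 0.988). Slc25a5, the main ADP/ATP exchanger outside muscle, was at 208, 171 and 201 CPM in normal, 165, 183 and 139 in fibrosis and 268, 291 and 269 in schisandrin B libraries. All 3 schisandrin B libraries lay above the other 6. Slc25a5 rose by 0.77 ± 0.18 in schisandrin B against fibrosis (edgeR adjusted p 0.00417), a call kept in all 18 alternatives, and was 0.51 ± 0.18 above normal without a call (0.0875), though it was called there in 3 of 18 alternatives (0.02 to 0.245). Slc25a4, the ADP/ATP exchanger of heart and muscle, was at 16.7, 10.2 and 8.58 CPM in normal, 12.4, 12.9 and 10.5 in fibrosis and 18.5, 11.2 and 17.4 in schisandrin B libraries, and the groups overlapped. Muscle and adipocyte markers summed to 113 CPM in fibrosis replicate 2, 21.5 in normal replicate 2 and 16.9 in schisandrin B replicate 2, against at most 6.94 elsewhere. Slc25a4 was highest of its group in fibrosis replicate 2, and not in normal or schisandrin B replicate 2. Reads of Slc25a5, Slc25a4 and the noncoding entry Slc25a6 can be shared between these near copies, so their single values are uncertain. Slc25a6 ranged from 9.82 to 18.9 CPM and was not called in any comparison.

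The calcium-regulated ATP-Mg/phosphate carriers, which set the adenine nucleotide content of the matrix, held the gene with the largest fold change of the 40 tested. Of the 3 tested, 1 rose and 2 fell in fibrosis, and 1 rose and 1 fell with schisandrin B against fibrosis. Slc25a23 stood at 127, 141 and 149 CPM in normal libraries, 11.7, 19.4 and 9.45 in fibrosis libraries and 195, 222 and 144 in schisandrin B libraries. The fibrosis libraries did not come near either other group, and schisandrin B replicate 3 lay within the normal range. Slc25a23 fell by 3.36 ± 0.28 in fibrosis (edgeR adjusted p 6.80e-06) and rose by 3.79 ± 0.29 with schisandrin B against fibrosis (5.80e-06). Slc25a25 was at 427, 572 and 532 CPM in normal, 413, 263 and 321 in fibrosis and 446, 455 and 476 in schisandrin B libraries. It fell by 0.62 ± 0.21 in fibrosis (edgeR adjusted p 0.0303) and was 0.46 ± 0.21 higher with schisandrin B without a call (0.0906), which upper-quartile factors (0.0297) and the omission of fibrosis replicate 1 (0.018) gave, over a range of 0.018 to 0.434. The fall of Slc25a25 was not called in 6 of 18 alternatives (0.0055 to 0.434), among them library totals (0.434) and the omission of normal replicates 2 (0.1) or 3 (0.0818) or fibrosis replicates 2 (0.0880) or 3 (0.0633).

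Slc25a24, the third of these carriers, went the other way and was singled out after its values had been seen. It was at 2.58, 4.20 and 4.05 CPM in normal, 3.24, 7.42 and 12.8 in fibrosis and 1.62, 1.46 and 1.83 in schisandrin B libraries. Fibrosis replicate 3 was high and replicate 1 lay within the normal range. It rose by 1.12 ± 0.43 in fibrosis (edgeR adjusted p 0.0474), a call made in 6 of 17 alternatives (0.002 to 0.269) and ended by the omission of any single library other than fibrosis replicate 1, with 0.269 without fibrosis replicate 3. The fall with schisandrin B against fibrosis was -2.26 ± 0.46 (0.00185) and was kept in all 17 alternatives that tested it. A filter at a mean of 5 CPM left Slc25a24 untested. Slc25a54 had 1 to 12 counts per library and did not pass the filter.

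Because shares within a set of carriers need no scaling between libraries, the counts of the 3 ATP-Mg/phosphate carriers were also split. Slc25a23 took 19.6% to 22.8% of them in normal, 2.72% to 6.69% in fibrosis and 23.2% to 32.7% in schisandrin B libraries, a share looked at after its values had been seen. The share of Slc25a24 was 0.547% ± 0.0724 in normal, 2.35% ± 1.5 in fibrosis and 0.254% ± 0.0393 in schisandrin B libraries (SD, n = 3 each). The 3 groups did not overlap in either share. The share of Slc25a24 also depends on Slc25a23 and Slc25a25, which both fell in fibrosis. In fibrosis replicate 1 it was 0.757%, above the normal libraries (0.463% to 0.592%), while the level of 3.24 CPM lay within the normal range. The exact permutation p was 0.1 for each pair of groups for Slc25a24, and 0.210 after Benjamini-Hochberg adjustment over the 21 share tests.

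**Figure D3:**
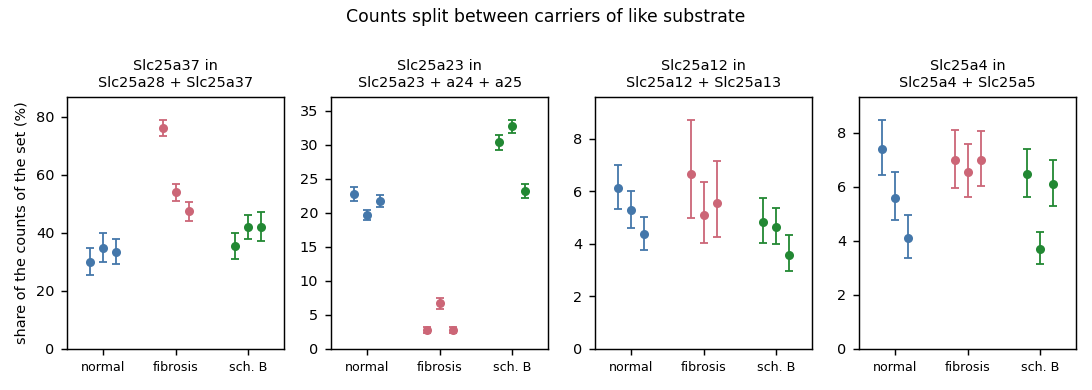
Share of the counts of a set of carriers with like substrates (y axis, percent) taken by the carrier named first, in each library, by group. Points are libraries and bars are exact 95% binomial intervals, which cover counting error only. The share of Slc25a37 is highest in the 3 fibrosis libraries (47.4% to 76.2%), and that of Slc25a23 lowest (2.72% to 6.69%).

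Of 4 carriers of di- and tricarboxylates, 3 fell in fibrosis, and 2 rose with schisandrin B against fibrosis. Slc25a10, which exchanges malate and succinate for phosphate, stood at 297, 277 and 309 CPM in normal, 41.0, 117 and 82.4 in fibrosis and 323, 292 and 276 in schisandrin B libraries. Fibrosis replicate 1 was the lowest library, and the normal and schisandrin B libraries overlapped. Slc25a10 fell by 1.88 ± 0.31 in fibrosis (edgeR adjusted p 0.000454) and rose by 1.89 ± 0.31 with schisandrin B against fibrosis (0.000476). Slc25a11, the malate/2-oxoglutarate carrier, was at 55.0, 53.8 and 60.2 CPM in normal, 18.1, 27.8 and 20.4 in fibrosis and 48.7, 51.8 and 54.0 in schisandrin B libraries. It fell by 1.35 ± 0.18 (edgeR adjusted p 0.000121) and rose by 1.22 ± 0.18 (0.000262). Slc25a21, which carries 2-oxoadipate, was 1.00 ± 0.40 lower in fibrosis (edgeR adjusted p 0.0584) and 0.94 ± 0.41 higher with schisandrin B (0.0755) without a call. It was called in 5 of 17 alternatives in the first comparison (0.0231 to 0.246), with DESeq2 (0.0415), limma voom (0.0454) and without fibrosis replicate 1 (0.0231) or schisandrin B replicate 1 (0.0375) among them. In the second it was called in 3 of 17 (0.0266 to 0.323), those with upper-quartile factors (0.0478) and without fibrosis replicate 1 (0.0300) or schisandrin B replicate 1 (0.0266).

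Slc25a1, the citrate carrier that supplies carbon for lipid synthesis in the cytosol, was low in both CCl4 groups. It stood at 199, 218 and 229 CPM in normal libraries, 88.7, 109.7 and 76.2 in fibrosis libraries and 105, 116 and 98.2 in schisandrin B libraries. Fibrosis and schisandrin B libraries overlapped, and all 6 lay below the normal ones. Slc25a1 fell by 1.23 ± 0.18 in fibrosis against normal (edgeR adjusted p 0.000228) and by 1.02 ± 0.18 in schisandrin B against normal (0.00532), and both calls were kept in all 18 alternatives. It took 5.93% to 6.26% of the carrier counts in normal, 3.66% to 4.84% in fibrosis and 2.52% to 3.13% in schisandrin B libraries.

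Acly, which splits exported citrate, was at 552, 1297 and 962 CPM in normal, 731, 896 and 1023 in fibrosis and 172, 117 and 95.3 in schisandrin B libraries. Acly fell by 2.79 ± 0.34 with schisandrin B against fibrosis (edgeR adjusted p 6.79e-05), and the fatty acid synthase Fasn by 3.42 ± 0.40 (6.21e-05). Neither was called in fibrosis against normal (0.842 and 0.556). Acacb, the acetyl-CoA carboxylase at the mitochondrial surface, fell by 4.53 ± 0.25 in fibrosis (8.14e-07) and rose by 2.08 ± 0.23 with schisandrin B against fibrosis (4.07e-05). Of the 8 genes of this list, 1 rose and 2 fell in fibrosis, and 2 rose and 4 fell in schisandrin B against fibrosis. The subunits of the mitochondrial pyruvate carrier, which is not an SLC25 protein, also fell in fibrosis and rose with schisandrin B. Mpc1 stood at 148, 123 and 130.3 CPM in normal, 55.1, 47.4 and 41.6 in fibrosis and 104, 182 and 170.4 in schisandrin B libraries, with a fall of 1.48 ± 0.22 (edgeR adjusted p 0.000274) and a rise of 1.66 ± 0.23 (0.000142). Mpc2 fell by 1.15 ± 0.23 (0.00168) and rose by 1.14 ± 0.23 (0.00189). Of 8 tested genes of pyruvate and calcium entry, 1 rose and 4 fell in fibrosis, and 3 rose and 2 fell with schisandrin B.

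Both aspartate/glutamate carriers of the malate-aspartate shuttle fell in fibrosis and rose with schisandrin B against fibrosis. Slc25a13 (citrin), the liver form, was at 267, 254 and 332 CPM in normal, 55.6, 106 and 57.8 in fibrosis and 232, 251 and 265 in schisandrin B libraries. Slc25a12 (aralar), the form of brain and muscle, was at 17.4, 14.2 and 15.1 CPM in normal, 3.97, 5.68 and 3.41 in fibrosis and 11.8, 12.2 and 9.86 in schisandrin B libraries. In both genes the fibrosis libraries were the lowest 3, with replicate 2 the highest of them. Slc25a13 fell by 1.96 ± 0.26 (edgeR adjusted p 0.000103) and rose by 1.77 ± 0.26 with schisandrin B against fibrosis (0.000221). Slc25a12 fell by 1.84 ± 0.24 (8.82e-05) and rose by 1.38 ± 0.24 (0.000665). The share of Slc25a12 in the counts of both was 5.25% ± 0.884 in normal and 5.78% ± 0.797 in fibrosis libraries (SD, n = 3; exact permutation p = 0.5), and 4.35% ± 0.666 in schisandrin B libraries (SD, n = 3; exact permutation p = 0.1 against fibrosis, adjusted 0.210).

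Of the 4 enzymes of this shuttle, 3 fell and 1 rose in fibrosis, and 1 rose with schisandrin B against fibrosis. The mitochondrial transaminase Got2 fell by 0.85 ± 0.24 (edgeR adjusted p 0.0112) and rose by 1.02 ± 0.24 (0.00427). The malate dehydrogenases Mdh1 and Mdh2 fell by 1.09 ± 0.28 (0.00777) and 0.81 ± 0.20 (0.00536), and with schisandrin B they were 0.35 ± 0.28 (0.333) and 0.23 ± 0.20 (0.360) higher than in fibrosis without a call. With library totals the falls of Got2 (0.119), Mdh1 (0.0621) and Mdh2 (0.105) were not called, and without fibrosis replicate 2 the rise of Mdh1 was (0.0135), over ranges of 0.00103 to 0.119, 0.000303 to 0.0621, 0.00022 to 0.105 and 0.0135 to 0.844. Got1, the cytosolic transaminase, rose by 0.86 ± 0.29 (0.0305), a call lost in 6 of 18 alternatives (0.00178 to 0.121), with upper-quartile factors (0.0509) and without normal replicates 1 (0.121) or 3 (0.121), fibrosis replicates 1 (0.0557) or 3 (0.0512) or schisandrin B replicate 1 (0.0550). Slc25a22, which imports glutamate with a proton, had another pattern. It was at 44.5, 66.2 and 49.5 CPM in normal, 35.1, 69.8 and 70.4 in fibrosis and 102, 122 and 135 in schisandrin B libraries. The schisandrin B libraries lay above the other 6, which overlapped. Slc25a22 rose by 1.03 ± 0.26 in schisandrin B against fibrosis (edgeR adjusted p 0.00722) and by 1.16 ± 0.27 against normal (0.0178). The first call was lost with library totals only (0.0597, over a range of 0.000836 to 0.0597). The second was lost in 4 of 18 alternatives (0.001 to 0.0808), those without normal replicates 1 (0.0784) or 3 (0.0808) or schisandrin B replicates 2 (0.0592) or 3 (0.0744). Its relative Slc25a18 had 1 count in all 9 libraries.

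Slc25a15, which exchanges cytosolic ornithine for citrulline in the urea cycle, fell in fibrosis and rose with schisandrin B against fibrosis. It stood at 381, 557 and 449.5 CPM in normal, 157, 301 and 285 in fibrosis and 628, 568 and 628 in schisandrin B libraries, and the 3 groups did not overlap. Slc25a15 fell by 0.90 ± 0.26 in fibrosis (edgeR adjusted p 0.0128) and rose by 1.30 ± 0.26 with schisandrin B against fibrosis (0.00173). The fall was lost with library totals (0.206) and without normal replicate 2 (0.0562), over a range of 0.00137 to 0.206. Of 6 urea cycle enzymes, the 3 of the mitochondrial matrix fell in fibrosis and rose with schisandrin B against fibrosis, and the 3 of the cytosol were not called in either comparison. With library totals 1 of these, Asl, rose (0.00549) and fell (0.0104). Otc, which uses the imported ornithine, was at 185, 168 and 127 CPM in normal, 8.18, 38.7 and 16.7 in fibrosis and 183, 209 and 188 in schisandrin B libraries. It fell by 2.91 ± 0.46 (edgeR adjusted p 0.000565) and rose by 3.19 ± 0.47 (0.000387). Nags and Cps1, which start the cycle, fell by 1.98 ± 0.19 (1.20e-05) and 1.74 ± 0.40 (0.00403), and rose by 2.24 ± 0.19 (8.89e-06) and 1.22 ± 0.39 (0.0244). Without fibrosis replicate 2, the highest fibrosis library, Otc fell by 3.67 and rose by 3.94. The rise of Cps1 was lost in 3 of 18 alternatives (0.00353 to 0.0958), with library totals (0.0958), without a filter (0.0557) and without schisandrin B replicate 1 (0.0649).

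Of the 4 tested carriers of ornithine and other amino acids, 1 rose and 1 fell in fibrosis, and 2 rose and 1 fell with schisandrin B against fibrosis. Slc25a29, a carrier of basic amino acids described here after its values had been seen, was at 2.92, 3.79 and 4.53 CPM in normal, 24.9, 14.5 and 10.4 in fibrosis and 6.12, 3.72 and 6.48 in schisandrin B libraries. It was highest in fibrosis replicate 1, and all fibrosis libraries lay above the other 6. Slc25a29 rose by 2.14 ± 0.35 in fibrosis (edgeR adjusted p 0.000479) and fell by 1.61 ± 0.35 with schisandrin B against fibrosis (0.00266), calls that were kept in all alternatives, including those without fibrosis replicate 1. Slc25a38, which imports glycine for heme synthesis, was 0.51 ± 0.23 lower in fibrosis without a call (0.0848; called without fibrosis replicates 1, 0.0459, or 2, 0.0485, over a range of 0.0299 to 0.682) and rose by 0.87 ± 0.23 with schisandrin B (0.0083). Slc25a44, which carries branched-chain amino acids, was not called in any comparison, at 20.9 to 49.9 CPM. Slc25a2 had 0 to 6 counts per library and did not pass the filter.

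Slc25a20, which imports acylcarnitines for fatty acid oxidation, fell in fibrosis and rose with schisandrin B against fibrosis. It was at 132, 83.0 and 129.5 CPM in normal, 62.4, 83.6 and 68.6 in fibrosis and 107, 132 and 128 in schisandrin B libraries. Fibrosis replicate 2 and normal replicate 2 were alike, and the schisandrin B libraries lay above all fibrosis libraries. Slc25a20 fell by 0.68 ± 0.21 in fibrosis (edgeR adjusted p 0.0187) and rose by 0.78 ± 0.21 with schisandrin B against fibrosis (0.0101). The fall was lost with library totals (0.341) and without normal replicates 1 (0.0738) or 3 (0.0720), over a range of 0.00578 to 0.341, and the rise with library totals (0.0609, range 0.00266 to 0.0609). Of 5 genes of the carnitine shuttle, 3 fell in fibrosis and 4 rose with schisandrin B against fibrosis, with none in the other direction. In the second comparison 2 rose with library totals, and 2 without schisandrin B replicate 2 or 3. Cpt1a, the rate-limiting acyltransferase, was at 588, 505 and 871 CPM in normal, 93.0, 264 and 247 in fibrosis and 564, 606 and 792 in schisandrin B libraries, a fall of 1.70 ± 0.37 (edgeR adjusted p 0.00278) and a rise of 1.70 ± 0.37 (0.00287). The carnitine acetyltransferase Crat fell by 1.40 ± 0.30 (0.00244) and rose by 1.57 ± 0.30 (0.00128), and the plasma membrane carnitine transporter Slc22a5 fell by 1.94 ± 0.45 (0.00504) and rose by 1.42 ± 0.44 (0.0233). Without fibrosis replicate 3 Slc22a5 fell by 2.56 and rose by 2.03, and the rise was lost in 5 of 18 alternatives (0.00213 to 0.0926), among them library totals (0.0873) and the omission of fibrosis replicate 2 (0.0735) or schisandrin B replicates 2 (0.0515) or 3 (0.0804).

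**Figure D4:**
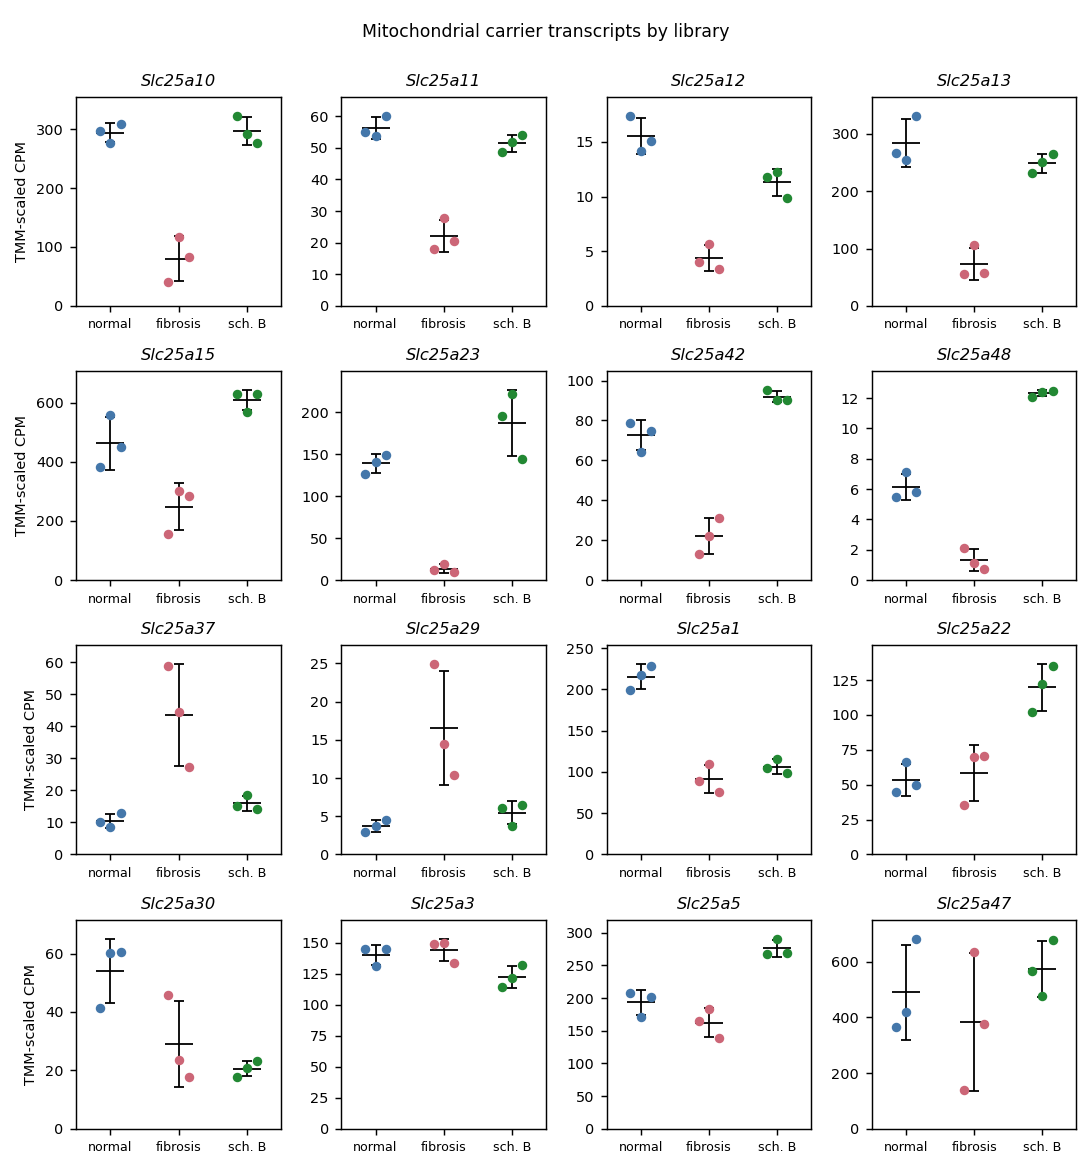
Level of 16 carriers in each library (TMM-scaled CPM, linear axis from 0) for normal, fibrosis and schisandrin B (sch. B) livers. Points are libraries, the horizontal mark is the mean and bars are the SD (n = 3). In the first 8 panels the fibrosis libraries are the lowest, in Slc25a37 and Slc25a29 they are the highest, and Slc25a1 is low in both CCl4 groups.

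Of the 8 tested carriers of cofactors and nucleotides, 1 rose and 2 fell in fibrosis, and 3 rose with schisandrin B against fibrosis. The 2 that fell were Slc25a42 and Slc25a16. Slc25a42, which imports coenzyme A, was at 78.9, 64.2 and 74.8 CPM in normal, 13, 21.9 and 31.2 in fibrosis and 95.3, 90.5 and 90.2 in schisandrin B libraries. Slc25a16, also linked to mitochondrial coenzyme A, was at 24.5, 24.9 and 28.7 CPM in normal, 10.7, 15.2 and 13.3 in fibrosis and 24.5, 33.7 and 31.0 in schisandrin B libraries. In both genes the fibrosis libraries lay below the other 6. Slc25a42 fell by 1.72 ± 0.26 (edgeR adjusted p 0.000275) and rose by 2.06 ± 0.26 with schisandrin B against fibrosis (0.0001), and Slc25a16 fell by 0.99 ± 0.19 (0.00132) and rose by 1.19 ± 0.19 (0.000457).

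The peroxisomal cofactor carrier Slc25a17 was the 1 member of this group that rose in fibrosis, by 0.61 ± 0.19 (edgeR adjusted p 0.0187), a call lost without normal replicate 2 (0.0765, range 0.000385 to 0.0765). Slc25a32, which carries folate and flavin cofactors, was at 15.3, 13.7 and 14.6 CPM in normal, 21.2, 20.6 and 16.1 in fibrosis and 23.3, 20.9 and 29.6 in schisandrin B libraries. The normal libraries were the lowest 3. It rose by 0.76 ± 0.19 in schisandrin B against normal (edgeR adjusted p 0.0266), and the call was lost in 5 of 18 alternatives (0.00817 to 0.13), without normal replicates 1 (0.0676), 2 (0.0862) or 3 (0.0875) or schisandrin B replicates 1 (0.0609) or 3 (0.130). The pyrimidine nucleotide carrier Slc25a33 was at 12.9, 10.3 and 9.15 CPM in normal, 9.23, 14.8 and 10.6 in fibrosis and 16.4, 15.4 and 21.5 in schisandrin B libraries. It rose by 0.62 ± 0.23 with schisandrin B against fibrosis (edgeR adjusted p 0.0462), a call made in 7 of 18 alternatives (0.0178 to 0.277) and lost on leaving out any single library other than fibrosis replicate 2, with 0.185 without schisandrin B replicate 3. The S-adenosylmethionine carrier Slc25a26 and the pyrimidine carrier Slc25a36 were not called, except with library totals. With these, both rose in fibrosis against normal (0.0108 and 0.0358, over ranges of 0.0108 to 0.324 and 0.0358 to 0.375) and Slc25a26 fell with schisandrin B against fibrosis (0.0353, range 0.0353 to 0.364). Reads of Slc25a36 can be shared with the separate entry Slc25a36l1. Slc25a52, an NAD carrier, had 0 to 5 counts per library and did not pass the filter.

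The mitoferrins import iron for heme and iron-sulfur cluster synthesis, and Slc25a37 rose in fibrosis. Slc25a37 (mitoferrin 1), known from red cell precursors, was at 10.2, 8.47 and 12.8 CPM in normal, 58.9, 44.3 and 27.2 in fibrosis and 15.1, 18.5 and 14.2 in schisandrin B libraries. The 3 groups did not overlap, and fibrosis replicate 1 was the highest library. Slc25a37 rose by 2.05 ± 0.28 in fibrosis (edgeR adjusted p 0.000124) and fell by 1.45 ± 0.27 with schisandrin B against fibrosis (0.00113), calls that were kept in all 18 alternatives. Slc25a28 (mitoferrin 2), the form of most tissues, was at 24, 15.8 and 25.5 CPM in normal, 18.5, 37.9 and 30.2 in fibrosis and 27.6, 25.6 and 19.4 in schisandrin B libraries, which overlapped, and it was not called except in fibrosis against normal with library totals (0.0266) and without fibrosis replicate 1 (0.0300, range 0.0266 to 0.656). Slc25a37 took 32.7% ± 2.53 of the counts of both in normal, 59.2% ± 15.1 in fibrosis and 39.8% ± 3.87 in schisandrin B libraries (SD, n = 3 each; exact permutation p = 0.1 for each pair of groups, adjusted 0.210). In fibrosis replicate 1 the share was 76.2%, with an exact 95% binomial interval of 73.3% to 78.8%.

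Red cell transcripts were present in all libraries. The summed level of 7 erythroid markers, most of it hemoglobin, was 326 to 612 CPM in normal, 615 to 799 in fibrosis and 358 to 831 in schisandrin B libraries. Of the 4 tested, 0 rose and 1 fell in fibrosis against normal, and none was called in schisandrin B against fibrosis. With library totals 3 rose and 1 fell in fibrosis, and 1 fell with schisandrin B. The part of red cells in the values of Slc25a37 was not tested.

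Of 9 genes of heme and iron-sulfur cluster synthesis and export, 6 fell and 0 rose in fibrosis, and 6 rose and 0 fell with schisandrin B against fibrosis. In fibrosis 1 fell with library totals and 4 without fibrosis replicate 1. The scaffold protein Iscu fell by 0.55 ± 0.18 (edgeR adjusted p 0.0252) and rose by 1.24 ± 0.18 (0.000242). Alas1, the first enzyme of hepatic heme synthesis, fell by 0.95 ± 0.22 (edgeR adjusted p 0.00363) and rose by 1.20 ± 0.22 (0.000912). The fall of Alas1 was lost with library totals (0.0827, range 7.49e-05 to 0.0827). The fall of Iscu was lost in 6 of 18 alternatives (0.00984 to 0.656), among them library totals (0.656) and the omission of normal replicates 1 (0.0755) or 3 (0.0676) or fibrosis replicates 1 (0.0548) or 3 (0.0556). Of the carriers tied to mitochondrial glutathione, Slc25a39 was not called in any comparison, at 133 to 191 CPM. Its relative Slc25a40 rose by 1.63 ± 0.55 with schisandrin B against fibrosis (edgeR adjusted p 0.0289), with 2 to 32 counts per library, and lost the call in 3 of 17 alternatives (0.0185 to 0.16), with library totals (0.0761) and without fibrosis replicate 1 (0.0740) or schisandrin B replicate 2 (0.160).

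Of the 2 tested carriers that resemble uncoupling proteins, Slc25a30 fell in both CCl4 groups against normal. It was at 41.3, 60.3 and 60.6 CPM in normal, 45.8, 23.5 and 17.8 in fibrosis and 17.8, 20.8 and 23.2 in schisandrin B libraries. Fibrosis replicate 1 lay within the normal range, and the schisandrin B libraries lay below all normal ones. Slc25a30 fell by 0.90 ± 0.31 in fibrosis against normal (edgeR adjusted p 0.0320) and by 1.39 ± 0.31 in schisandrin B against normal (0.0180). The first call was lost in 6 of 18 alternatives (0.00025 to 0.127), with library totals (0.127), with only the groups compared (0.0504) and without normal replicates 2 (0.0900) or 3 (0.0907) or fibrosis replicates 2 (0.102) or 3 (0.0928). The second was lost in 5 of 18 (0.000433 to 0.0738), without normal replicates 2 (0.0582) or 3 (0.0659) or schisandrin B replicates 1 (0.0738), 2 (0.0652) or 3 (0.0546). Slc25a27 was not called in any comparison, and Slc25a14, with 4 to 11 counts per library, did not pass the filter. The uncoupling protein Ucp2, which the naming rule leaves out, was at 44.7 to 68.2 CPM in normal, 32 to 45.3 in fibrosis and 23.4 to 41.6 in schisandrin B libraries. It was not called, except as lower in schisandrin B against normal with DESeq2 (0.0371), with only the groups compared (0.0427) and without fibrosis replicate 1 (0.0457).

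Of 7 tested members of the outer membrane or without a settled substrate, 4 fell in fibrosis and 3 rose with schisandrin B against fibrosis. Slc25a48, linked to mitochondrial choline uptake, was at 5.50, 7.11 and 5.83 CPM in normal, 2.10, 1.14 and 0.705 in fibrosis and 12.1, 12.4 and 12.5 in schisandrin B libraries. The 3 groups did not overlap, and the schisandrin B libraries were the highest. Slc25a48 fell by 2.25 ± 0.35 in fibrosis (edgeR adjusted p 0.000301) and rose by 3.25 ± 0.35 with schisandrin B against fibrosis (3.39e-05). It was 1.00 ± 0.31 above normal without a call (0.0594), and was called there in 7 of 18 alternatives (0.00413 to 0.167), among them those without fibrosis replicates 1 (0.00781) or 3 (0.0286). Slc25a47, a carrier enriched in liver, varied widely, at 365, 421 and 683 CPM in normal, 139, 635 and 375 in fibrosis and 566, 476 and 678 in schisandrin B libraries. Fibrosis replicate 1 was the lowest library, the groups overlapped, and Slc25a47 was not called in the 3 comparisons, except in schisandrin B against fibrosis without fibrosis replicate 2 (edgeR adjusted p 0.0485, range 0.0485 to 0.66).

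The others of this group are little studied. Slc25a43 was at 3.61, 2.71 and 3.48 CPM in normal, 2.10, 1.67 and 1.88 in fibrosis and 1.43, 1.60 and 1.73 in schisandrin B libraries. All 6 CCl4 libraries lay below the normal ones. Slc25a43 fell by 0.79 ± 0.30 in fibrosis (edgeR adjusted p 0.0453), a call made in 8 of 17 alternatives (0.0286 to 0.355) and lost, among others, with library totals (0.355) and without normal replicates 1 (0.119) or 3 (0.102), fibrosis replicates 2 (0.123) or 3 (0.0934) or schisandrin B replicates 2 (0.0634) or 3 (0.0618). Slc25a45 fell by 1.89 ± 0.32 in fibrosis (edgeR adjusted p 0.000627) and rose by 1.08 ± 0.33 with schisandrin B against fibrosis (0.0182), a rise lost in 4 of 17 alternatives (0.00687 to 0.0672), with library totals (0.0672) and without fibrosis replicate 2 (0.0649) or schisandrin B replicates 1 (0.0530) or 2 (0.0621). Slc25a35, with 8 to 45 counts per library, fell by 1.19 ± 0.41 (0.0302) and rose by 1.61 ± 0.40 (0.00657), and the fall was lost in 7 of 17 alternatives (0.0071 to 0.119), with library totals (0.119) and without normal replicates 2 (0.0543) or 3 (0.0914) or fibrosis replicates 2 (0.1) or 3 (0.0902) among them. The outer membrane protein Slc25a46 was not called in any comparison. Slc25a34, with 4 to 23 counts per library, was 1.14 ± 0.54 higher with schisandrin B against fibrosis without a call (0.102), and without fibrosis replicate 3 it rose by 1.94 (0.0188, range 0.0188 to 0.298).

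Carrier proteins are made in the cytosol and reach the inner membrane through import complexes. Of 12 tested import genes 6 rose and 0 fell in fibrosis, and 2 rose and 4 fell with schisandrin B against fibrosis. All genes tested gave 25.4% called higher and 22.9% called lower in the first comparison, and 22.5% and 24.8% in the second. With library totals 10 rose in fibrosis, and 1 rose and 5 fell with schisandrin B. Under that scaling 74.7% of all calls were higher in fibrosis, and 32.6% in schisandrin B against fibrosis. Tomm20, a receptor of the outer membrane, was at 26.8, 18.2 and 32.8 CPM in normal, 132, 78.0 and 64.2 in fibrosis and 24.7, 29.7 and 36.4 in schisandrin B libraries. It rose by 1.82 ± 0.30 (edgeR adjusted p 0.000472) and fell by 1.59 ± 0.30 (0.00114). Tomm70a, the receptor for carrier precursors, rose by 1.07 ± 0.24 (0.00341) and fell by 1.42 ± 0.24 (0.000659), and the pore Tomm40 rose by 1.26 ± 0.17 (0.000105) and fell by 1.27 ± 0.17 (0.000115).

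**Figure D5:**
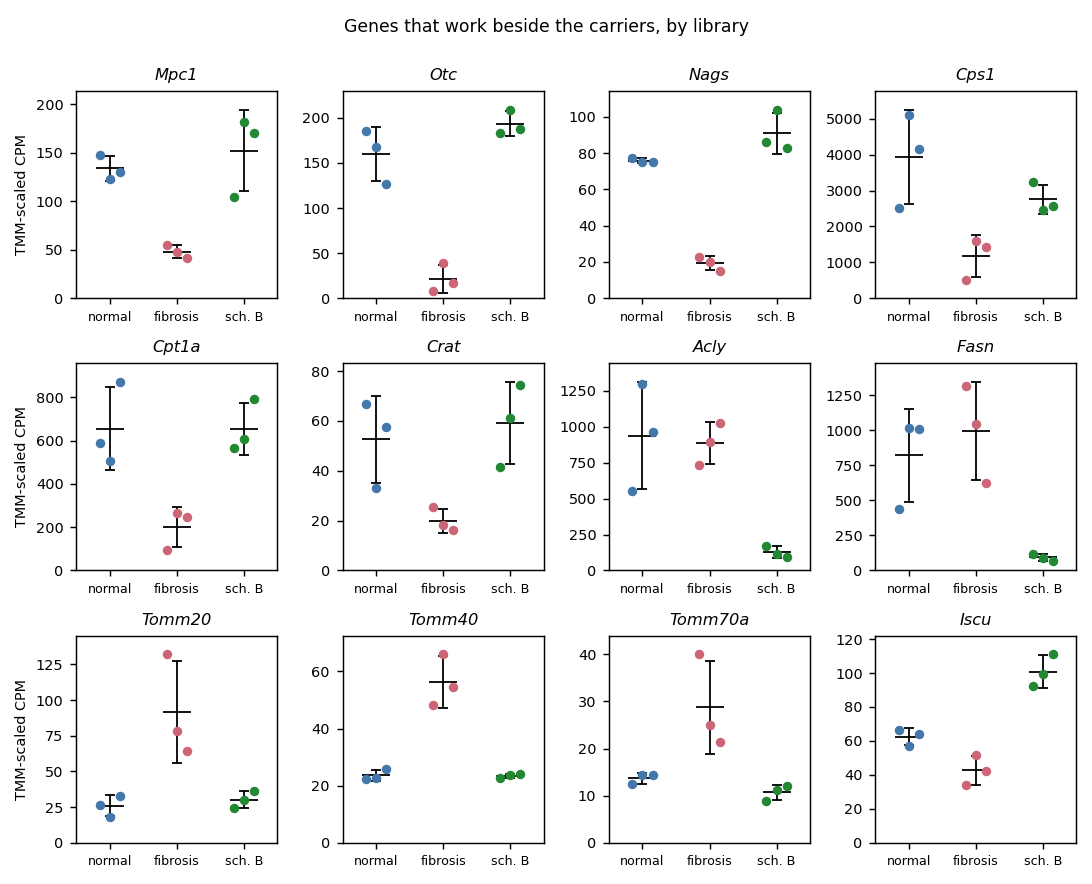
Level of 12 genes that work beside the carriers in each library (TMM-scaled CPM, linear axis from 0) for normal, fibrosis and schisandrin B (sch. B) livers, with the mean and the SD (n = 3). The fibrosis libraries are the lowest in Mpc1, Otc, Nags, Cps1, Cpt1a, Crat and Iscu and the highest in the import genes Tomm20, Tomm40 and Tomm70a, and Acly and Fasn are lowest in schisandrin B.

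Between schisandrin B and normal livers 4 of the 40 tested carriers were called, a share of 10% near the 10.5% of all genes. The called ones were Slc25a22 and Slc25a32, which rose, and Slc25a1 and Slc25a30, which fell. The libraries of both groups did not overlap in 42.5% of the 40 tested carriers, 11 higher and 6 lower, where 38.7% of all genes tested did not overlap, 19.9% higher and 18.8% lower. Of the 20 carriers called in fibrosis against normal, 13 lay within 1.5-fold of normal in schisandrin B livers and 7 lay further away. The same share was not computed over all genes called in fibrosis, so these numbers do not show a trait of the carriers. The 7 were Slc25a30, Slc25a24 (-1.14 ± 0.46), Slc25a43 (-1.03 ± 0.30), Slc25a1, Slc25a45 (-0.81 ± 0.31), Slc25a37 (0.60 ± 0.27) and Slc25a48. Only Slc25a1 and Slc25a30 of these were called, and the edgeR adjusted p was 0.139 for Slc25a24, 0.0525 for Slc25a43, 0.119 for Slc25a45 and 0.183 for Slc25a37. The 13 ranged from -0.46 ± 0.23 for Slc25a12 to 0.53 ± 0.36 for Slc25a29. The absence of a call does not show equal levels, and the number called depended on the fit: it was 10 with only the groups compared, 8 with DESeq2 and 8 without fibrosis replicate 1, and 1 or 2 without any single normal or schisandrin B library. The share of all genes called moved as well. It was 21.1%, 15% and 18.5% in the first 3 of these fits, and 4.62% to 6.69% without single normal or schisandrin B libraries.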

How the data were processed

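Liver RNA from 9 Ion Proton libraries was analysed, 3 each from normal, fibrosis and schisandrin B rats, with groups taken from the source names. The authors deposited 1 table of unnormalized counts, whole reads per gene symbol, per the file headers and values. No label or header names the aligner or counter. The submitters' processing notes name the mouse build GRCm38 and the labels name mouse as the organism, but the strain is Wistar rat and the symbols are rat symbols (1317 start with RGD and 1687 with Olr), so genes are given by symbol, with no position or sequence.

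Counts were filtered with filterByExpr, scaled with TMM factors and fitted with edgeR 4.0.16 (robust quasi-likelihood, all 9 libraries, 1 mean per group) in R 4.3.3. Shares and sums were compared with exact two-sided permutation tests (scipy 1.17.1). Levels are not divided by transcript length and are not compared between genes. Intervals and floors cover counting error only. Simulated data with 200 planted changes per comparison recovered 73% to 84% of 4-fold and 21% to 22% of 2-fold changes. Of the calls made there, 2.0% to 10.2% were false. The libraries gave 7041 calls in fibrosis against normal, 6895 in schisandrin B against fibrosis and 1531 in schisandrin B against normal. Recovery and the share of false calls with that many changes were not tested. The members, lists and tests were chosen with earlier results of these data known. By rule, the values of every library are given for the 8 carriers with the lowest adjusted p in each comparison and for 16 liver carriers, 23 in all, and up to 3 genes are named per partner list. Alternatives were other scalings, filters, tests (DESeq2 1.42.0 and limma 3.58.1 voom), thresholds, fits on 2 groups, omission of the 20 most counted genes and of each library. Numbers of alternatives given for single genes leave out the stricter thresholds and any fit in which the gene was not tested. Some single genes are not reported here.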

Additional observations from a re-analysis of the deposited data

How the results depend on the processing

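Stricter thresholds, and fits in which a gene was not tested, are left out of the next counts. Of the 20 carriers called in fibrosis against normal, 12 were called in every alternative, of the 20 in schisandrin B against fibrosis 15, and of the 4 in schisandrin B against normal 1, Slc25a1. A threshold of 2-fold would drop Slc25a16 from the 12, and Slc25a5 and Slc25a38 from the 15. A filter at a mean of 5 CPM left Slc25a45 of the 12, and Slc25a24 and Slc25a35 of the 15, untested. With library totals the median carrier was at -0.04, 0.26 and 0.37 in the 3 comparisons in that order, and 7 carriers were called in the third, beside 12% of all genes. Of the calls in the first comparison, 12 had an adjusted p under 0.01 and 13 were at least 2-fold. Of all genes 33.7% and 33.6% were called under these rules. In schisandrin B against normal, 1 had an adjusted p under 0.01, DESeq2 called 8 and the fit on only the groups compared 10, beside 3.75%, 15% and 21.1% of all genes. Leaving out 1 library at a time gave 1 to 8 calls in that comparison, and medians of 0.12 to 0.27 there and 0.45 to 0.74 in schisandrin B against fibrosis. The share of all genes called in schisandrin B against normal then ranged from 4.62% to 18.5%.

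Small differences without a call changed sign. In fibrosis against normal, Slc25a3 was at -0.07 with upper-quartile factors and -0.01 to 0.09 without single libraries. Slc25a4 was at 0.00 with DESeq2 size factors and with the DESeq2 test, -0.10 with upper-quartile factors, -0.03 with a mean of at least 5 CPM and -0.18 to 0.33 without single libraries. Slc25a33 was at -0.01 with upper-quartile factors. Without single libraries Slc25a22 ranged from -0.02 to 0.39, Slc25a33 from -0.11 to 0.24 and Slc25a47 from -0.93 to 0.05. With library totals Slc25a5 was at 0.17 and Slc25a47 at 0.11, Slc25a1 at -0.05 in schisandrin B against fibrosis, and Slc25a11 and Slc25a25 at 0.03 and 0.00 in schisandrin B against normal. In the last comparison, leaving out single libraries gave -0.04 to 0.06 for Slc25a10, -0.10 to 0.20 for Slc25a20 and -0.03 to 0.29 for Slc25a28, and share differences of -1.08 to 0.579 percentage points for Slc25a4, -0.857 to 1.98 for Slc25a33 and -0.282 to 0.0598 for Slc25a39. The causes were not tested. Shares divided by coding length were not run, because rat gene lengths were not used here. No paired analysis was possible because the labels give no replicate numbers shared between groups. Without the filter on low counts 45 carriers were tested, and 18, 19 and 4 were called in the 3 comparisons, with none of the 5 added ones among them. Of all 24639 genes in that fit, 28%, 27.2% and 6.15% were called. The partner genes and marker lists were put through the same scalings and omissions after their values had been seen.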
